A study of Mus musculus with 4 samples.

Results

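Secreted liver hormones, angiopoietin-like proteins and their receptors are described here in mouse induced hepatocyte-like (iHep) cells, which are hepatocyte-like cells made from another cell type. The 9 genes are Fgf21, Klb, Fgfr4, Angptl4, Angptl6, Lect2, Enho, Ahsg and Fetub. Their probes were found by gene name, which gave 14 of the 41174 probes on the arrays, and all 9 genes were among the 16435 genes tested. The genes were chosen with their levels on these arrays known, so their values are descriptions and carry no test. The cells came from C57BL/6 mice and from starting cells that the labels call MDFs, an abbreviation they do not spell out. They were grown in 3D or in 2D culture in 2 independent experiments, iHep-2 and iHep-1, and each experiment gave 1 array of each culture. Both 2D samples have a plus sign in their titles that neither the labels nor the files explain, and what it stands for cannot be told apart from the culture.

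Hepatocytes release proteins that act as hormones on fat, muscle, gut, brain and the liver itself. FGF21, released in fasting and under cell stress, acts on cells that carry an FGF receptor together with the co-receptor beta-klotho (Klb), while FGFR4 with the same co-receptor is the hepatocyte's receptor for the gut hormone FGF15. Angiopoietin-like proteins such as ANGPTL4 hold back lipoprotein lipase, which releases fatty acids from circulating fat, and the fetuins Ahsg and Fetub are cystatin-like plasma glycoproteins made by the liver.

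The upstream sequence of a gene is where liver and stress factors bind, so those of the members on which the comparisons below turn are shown first. RefSeq (GRCm38.p6) gave a promoter for 7 of the 9 members. The 250 bases before the start site are printed for Fgf21 and Klb, which differed most between the experiments, and for the neighbouring fetuin genes Ahsg and Fetub. Capitals mark matches to the motifs that are spelled out after the sequences.
Fgf21, chr7:45615491-45615740, minus strand: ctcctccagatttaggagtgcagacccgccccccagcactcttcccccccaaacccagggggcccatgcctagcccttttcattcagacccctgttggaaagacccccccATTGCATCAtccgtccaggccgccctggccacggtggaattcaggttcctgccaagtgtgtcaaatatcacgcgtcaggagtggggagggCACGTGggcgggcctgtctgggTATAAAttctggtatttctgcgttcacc
Klb, chr5:65348161-65348410, plus strand: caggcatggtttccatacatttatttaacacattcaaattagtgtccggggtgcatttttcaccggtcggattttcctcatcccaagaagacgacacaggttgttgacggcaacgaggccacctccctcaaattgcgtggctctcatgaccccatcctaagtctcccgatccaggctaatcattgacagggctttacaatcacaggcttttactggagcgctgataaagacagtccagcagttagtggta
Ahsg, chr16:22891765-22892014, plus strand: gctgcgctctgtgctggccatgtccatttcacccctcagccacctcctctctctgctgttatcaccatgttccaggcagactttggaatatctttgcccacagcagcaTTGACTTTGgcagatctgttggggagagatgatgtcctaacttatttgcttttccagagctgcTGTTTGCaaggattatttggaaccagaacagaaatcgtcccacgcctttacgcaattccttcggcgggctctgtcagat
Fetub, chr16:22918132-22918381, plus strand: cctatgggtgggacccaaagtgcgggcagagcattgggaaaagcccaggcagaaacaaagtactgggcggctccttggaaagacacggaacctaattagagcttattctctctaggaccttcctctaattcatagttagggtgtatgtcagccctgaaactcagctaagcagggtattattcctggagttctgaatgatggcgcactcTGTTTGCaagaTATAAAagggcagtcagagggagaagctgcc

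The motifs were searched on both strands. The Fgf21 window held a match to TGATGNAAT, the amino acid response element that the stress factor ATF4 reads, from 140 to 132 bases before the start site. Of 32851 RefSeq promoters of this length, 0.816% held that motif. The window also held the E-box CACGTG, 50 to 45 bases before the start site (6.02% of promoters), and a TATA box, TATAAA, 28 to 23 bases before it (12.4% of promoters). The forkhead motif TGTTTGC lay in the Ahsg window at 79 to 73 bases and in the Fetub window at 42 to 36 bases before the start site (4.30% of promoters). Ahsg also had a match to CAAAGTCNA, a motif of the liver factor HNF4, at 142 to 134 bases (0.898% of promoters), and Fetub a TATAAA at 31 to 26 bases. Klb had none of these matches, and the PPAR motif, AGGTCA repeated after 1 base, was in none of the members' windows (0.0335% of promoters). A second RefSeq promoter of Fetub and those of Fgfr4, Angptl6 and Lect2 held none of the motifs. A match is a description of these letters only.

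The 4 samples took 1 array each, in 1 colour, on 1 shared slide that was scanned once. Levels are log2 of the background-corrected signal minus the array's 75th percentile, so 0 is the 75th percentile and each unit is a 2-fold step. That percentile was 399 intensity units (3D) and 616 (2D) in iHep-2, and 594 (3D) and 523 (2D) in iHep-1. Between 23061 and 24413 probes per array were well above background, and no spot was flagged as saturated. Of 9 hepatocyte markers with a probe, 8 were well above background on every array and Cyp2e1 on none. All 6 cholangiocyte markers were well above background on every array. Of 10 fibroblast markers, 3 to 7 were well above background, with Thy1, Dcn and Postn on no array. Of 6 adipocyte markers, Cidec and Fabp4 were well above background on every array and Adipoq, Lep, Plin1 and Retn on none. Macrophage markers reached 2 of 5 and endothelial markers 1 to 2 of 5. The part of other cell types in the results below was not tested, and in bulk RNA fewer cells of a type and less RNA per cell cannot be told apart.

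Between cultures, 5 of the 9 genes had, by brightest probes, the same sign in both experiments and 4 had opposite signs. By each gene's brightest probe, Angptl6 was the only member at least 2-fold different in the same direction in both, and it was lower in 3D. The Fgfr4 probe designed on the RefSeq transcript, not its brightest, was also lower in 3D, 2.89-fold in iHep-2 and 2.15-fold in iHep-1. Over all genes tested, 2.13% were lower by that rule and 4.26% higher, against 1 and 0 of the 9 members. The signs were opposite for Klb, Angptl4, Lect2 and Ahsg, as for 33.8% of all genes. Fgfr4 (by its brightest probe), Enho and Fetub were higher in 3D in both experiments (33.1% of all genes), and Fgf21 and Angptl6 were lower in both (33.0%). For Fgf21 this rests on -0.004 in iHep-2, where the cultures were level and its other probe gave 0.19.

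Between the experiments, 5 of the 9 genes (Fgf21, Klb, Angptl4, Enho and Fgfr4 by its brightest probe) stood further apart than between the cultures. In both cultures, by brightest probes, iHep-2 exceeded iHep-1 at least 2-fold for Fgf21 and Angptl6 and was at least 2-fold lower for Klb. The other Angptl6 probe gave 0.83 log2 units in 3D and 1.60 in 2D, so it fell short in 3D. The Fgfr4 probe designed on the RefSeq transcript met the 2-fold rule, with 1.03 and 1.46. Over all genes, 5.12% were higher and 5.75% lower by that rule. Of any size, 4 members were higher in iHep-2 in both cultures (30.0% of all genes), 3 were lower (33.6%), and Lect2 and Ahsg had opposite signs (36.4%). By brightest probes, the arrays of iHep-2 did not overlap those of iHep-1 for 6 members. Fgf21, Fgfr4 and Fetub were higher (19.1% of all genes) and Klb, Angptl4 and Enho lower (22.6%). By the Fgfr4 probe on the RefSeq transcript the experiments overlapped, with -4.57 in 3D of iHep-2 and -4.50 in 2D of iHep-1. For the cultures only Angptl6 did not overlap by brightest probes, with its 3D arrays below its 2D arrays (21.6% of all genes, and 19.8% with 3D above 2D). The Fgfr4 probe on the RefSeq transcript also had both 3D arrays below both 2D arrays. The members were picked with these differences in view, so the counts say nothing of how hormone genes behave as a class.

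By limma over all 16435 genes, 0 were higher and 0 lower in 3D (667 and 490 at an unadjusted p under 0.05), and with the experiment as a replicate block again 0 and 0. In iHep-2 against iHep-1, limma called 21 genes higher (0.128%) and 33 lower (0.201%). With culture as the block it called 141 higher (0.858%) and 162 lower (0.986%). In these fits the arrays of an experiment were its own cultures, so no spread between repeated derivations was measured. The calls and adjusted p-values for the experiments, here and below, weigh their difference against the spread between those cultures. Whether further derivations would differ in the same way was not tested. The labels give no more on how the derivations differed, and a difference between the experiments cannot be told apart from one between their derivations, days or cells.

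**Figure D1:**
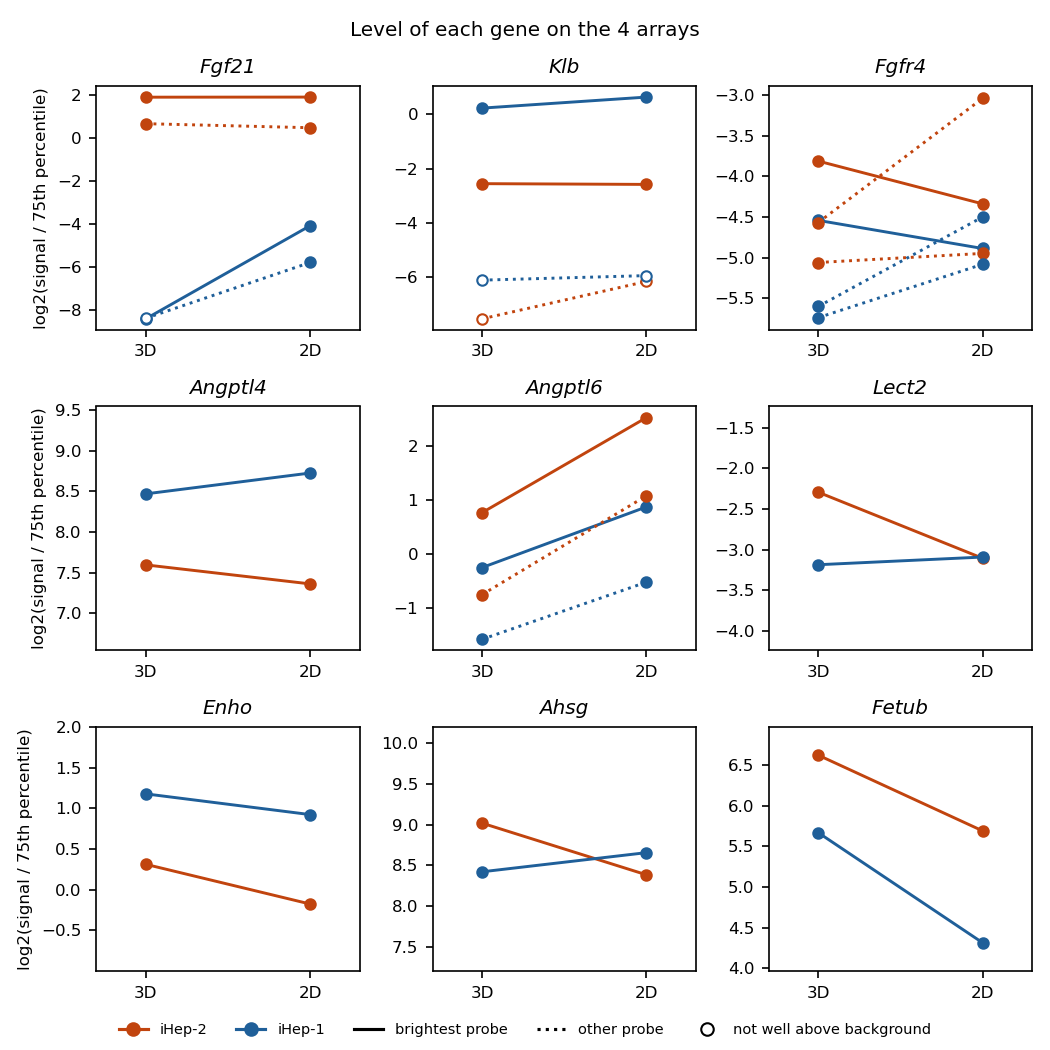
Level of each of the 9 genes on the 4 arrays, as log2 signal relative to the array's 75th percentile (vertical axis, own range per panel), with 3D left of 2D; orange is iHep-2 and blue iHep-1, solid lines are the brightest probe of a gene, dotted lines its other probes and open circles values not well above background. In Fgf21 the 2 iHep-2 arrays sit at 1.89 and the iHep-1 arrays at -8.39 and -4.07, and in Klb the order of the experiments is turned round.

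Fgf21, the fasting and stress hormone, had the widest range of the 9 genes over the 4 arrays. In iHep-2 its brighter probe stood at 1.89 in 3D and 1.89 in 2D. In iHep-1 it stood at -8.39 in 3D, not well above background, and at -4.07 in 2D. All iHep-2 values were thus far above all iHep-1 values, while in iHep-2 the cultures were level. Before scaling these were intensities of 1479 (3D) and 2291 (2D) in iHep-2, against 1.78 and 31.2 in iHep-1. In 3D the iHep-2 signal was at least 247-fold brighter than the iHep-1 signal, and in 2D the difference was 5.96 log2 units, or 62.3-fold. In iHep-1, the 3D signal was at least 3.98-fold dimmer than the 2D signal. The scanner's own error of the spot was 99.9% of the signal (3D) and 11.3% (2D) in iHep-1, and 10.0% on both iHep-2 arrays.

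A second Fgf21 probe lies elsewhere in the transcript and put the experiments in the same order. The brighter probe lies at mm9 chr7:52869305-52869364 and is only 20% G and C. The second one, 51.7% G and C, is a 60-base probe placed over 615 bases of the genome (chr7:52869680-52870294, minus strand), as a probe across an exon junction is. Its sequence and that of the junction probe of Angptl6 are given as the files hold them.
Fgf21 junction probe: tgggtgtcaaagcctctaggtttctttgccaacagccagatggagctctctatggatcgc
Angptl6 junction probe: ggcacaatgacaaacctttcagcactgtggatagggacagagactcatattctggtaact

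By the Fgf21 junction probe the levels were 0.66 (3D) and 0.47 (2D) in iHep-2, against -8.36 (3D, not well above background) and -5.77 (2D) in iHep-1. In 3D the iHep-2 signal was brighter by at least 105-fold, and in 2D it differed by 6.25 log2 units. The iHep-1 cultures differed at least 1.22-fold by this probe, with 3D the dimmer. Both probes thus put iHep-2 above iHep-1 in both cultures. The size depends on the background correction: with normexp, which lifts dim signals, the mean difference of the experiments was 5.02 log2 units in place of 8.12, and 3D minus 2D was -0.39 in place of -2.16.

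Klb, the co-receptor through which FGF21 and FGF15 signal, ran the other way. Its probe (mm9 chr5:65774926-65774985) stood at -2.55 (3D) and -2.58 (2D) in iHep-2, against 0.23 (3D) and 0.63 (2D) in iHep-1. Both iHep-2 arrays lay below both iHep-1 arrays. As fold values, iHep-2 was 6.87-fold lower in 3D and 9.28-fold lower in 2D. The cultures differed by 0.03 (iHep-2) and -0.41 (iHep-1), which are small and of opposite sign. Another Klb probe (chr5:65740979-65741038) was not well above background on any array. Each culture of iHep-2 thus had more Fgf21 signal and less Klb signal than the same culture of iHep-1.

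Fgfr4, the receptor tyrosine kinase for bile acid control in hepatocytes, was dim on all 4 arrays by all 3 of its probes, and its probes disagreed on the cultures. The brightest probe (mm9 chr13:55269360-55269419) stood at -3.81 (3D) and -4.34 (2D) in iHep-2, against -4.54 (3D) and -4.89 (2D) in iHep-1. By that probe 3D exceeded 2D by 0.53 (iHep-2) and 0.35 (iHep-1). A probe further along the gene had the opposite sign, with 3D minus 2D of -1.53 and -1.10, and the third gave -0.11 and -0.66.

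All 3 Fgfr4 probes put iHep-2 above iHep-1 in both cultures, by 0.13 to 1.46 log2 units. Per the probe descriptions, the brightest and the third were designed on a splice variant and the one of opposite sign on the RefSeq transcript (chr13:55269977-55270036). With the mean of the 3 probes, 3D minus 2D was -0.42, so no direction between cultures is given for Fgfr4.

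Other genes of the FGF receptor system were mixed between cultures and mostly lower in iHep-2. Of 14 receptors, klothos and ligands listed besides the members, 9 were tested. In 3D against 2D, 2 were higher and 5 lower in both experiments, 0 by 2-fold, and the median was -0.10, against 0.02 over all genes. In iHep-2 against iHep-1, 1 was higher and 5 lower in both cultures, 3 of them at least 2-fold, and the median was -0.36, against -0.005 over all genes. Neither comparison had a list gene called by limma.

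Among the FGF receptors, Fgfr1, the usual partner of Klb in fat, stood at -4.04 (3D) and -3.88 (2D) in iHep-2, against -2.54 (3D) and -2.12 (2D) in iHep-1. It was lower in iHep-2, with differences of -1.50 in 3D and -1.77 in 2D. Fgfr2 differed by -3.66 in 3D and -1.05 in 2D (iHep-2 minus iHep-1), and Fgfr3 by 0.64 and 1.72. The ligand Fgf7, made by mesenchymal cells, was not well above background in iHep-2 and at least 16.9-fold brighter in iHep-1 (adjusted p = 0.053 by limma, and 0.040 with culture as a block). Fgf15, Fgf2 and the other klothos Kl and Lctl were not well above background on any array.

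Angptl4, the lipoprotein lipase inhibitor that fasting and low oxygen induce in many tissues, was bright throughout. Its probe (mm9 chr17:33911880-33911939) stood at 7.60 (3D) and 7.36 (2D) in iHep-2, against 8.47 (3D) and 8.73 (2D) in iHep-1. Both iHep-2 arrays lay below both iHep-1 arrays, with differences of -0.87 in 3D and -1.36 in 2D. Between cultures it differed by 0.23 (iHep-2) and -0.26 (iHep-1). Intensities before scaling were 77158.5 (3D) and 101334 (2D) in iHep-2, against 210663 (3D) and 221537 (2D) in iHep-1. Whether signals this bright still follow the amount of RNA was not tested.

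Angptl6, a liver-secreted relative with metabolic effects in mice, was the member whose cultures did not overlap, taking each gene's brightest probe. It stood at 0.76 (3D) and 2.52 (2D) in iHep-2, against -0.26 (3D) and 0.87 (2D) in iHep-1 (probe at mm9 chr9:20678326-20678385). Both 3D arrays were below both 2D arrays, and 3D minus 2D was -1.76 in iHep-2 and -1.12 in iHep-1, which are 3.39-fold and 2.18-fold. The junction probe printed above, over chr9:20678511-20679663, gave -1.83 and -1.06 for the same differences.

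In each culture Angptl6 was also higher in iHep-2, by 1.02 in 3D and 1.65 in 2D, and by the junction probe by 0.83 and 1.60. The 3D array of iHep-2 (0.76) lay below the 2D array of iHep-1 (0.87), so the experiments overlap. The mean 3D minus 2D, -1.44, was -0.62 without the 2D array of iHep-2, -0.93 without the 3D array of iHep-1 and -2.27 without the 2D array of iHep-1. It was negative under every setting listed in the closing section.

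Of the other angiopoietin genes, most were dark. Angptl1, Angptl2, Angptl7, Angpt1, Angpt4 and the receptors Tek and Tie1 did not pass the filter on dim probes, and 3 of 10 listed genes were tested. Angptl8, a liver and fat protein that takes part in the control of lipoprotein lipase, was higher in iHep-2 by 3.95 in 3D and 1.51 in 2D. Its levels were 2.28 (3D) and 0.84 (2D) in iHep-2, against -1.67 (3D) and -0.67 (2D) in iHep-1, so the cultures had opposite orders. Among 11 tested partners of lipoprotein lipase, the apolipoprotein Apoa5, an activator of the lipase, was higher in 3D by 2.29 (iHep-2) and 4.41 (iHep-1). Pcsk5, a proprotein convertase of the family that cleaves angiopoietin-like proteins, was higher in iHep-2 by 3.92 in 3D and 4.41 in 2D (adjusted p = 0.081, and 0.042 with culture as a block, limma). The list's medians were 0.28 for the cultures and 0.13 for the experiments, with 0 genes called by limma.

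Lect2, a hepatocyte-made chemotactic protein and ligand of the receptor Met, was dim and differed little. Its probe (mm9 chr13:56643950-56644009) stood at -2.29 (3D) and -3.11 (2D) in iHep-2, against -3.18 (3D) and -3.09 (2D) in iHep-1. Only the 3D array of iHep-2 stood apart, and the other 3 lay between -3.18 and -3.09. Intensities before scaling were 81.4, 71.6, 65.4 and 61.4 in that order.

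Enho encodes adropin, a peptide of energy balance. Its probe (mm9 chr4:41585257-41585316) carries no gene symbol in the files and was matched through the clone named in its description. The levels were 0.31 (3D) and -0.18 (2D) in iHep-2, against 1.18 (3D) and 0.92 (2D) in iHep-1. Each experiment had 3D above 2D, by 0.49 (iHep-2) and 0.26 (iHep-1). The experiments did not overlap, and iHep-2 was 1.82-fold lower in 3D and 2.14-fold lower in 2D.

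Receptors and partners of these hormones included larger differences than Lect2 and Enho themselves. Of 13 tested, 4 were higher and 3 lower in 3D in both experiments. The asialoglycoprotein receptor subunits Asgr1 and Asgr2, which clear plasma glycoproteins, differed by 6.21 and 1.11 and by 3.03 and 0.97 (3D minus 2D, iHep-2 first). Met was higher in iHep-2 by 1.58 in 3D and 2.29 in 2D. The insulin receptor Insr, which fetuin-A is known to hold back, had iHep-2 minus iHep-1 of -0.83 in 3D and -1.14 in 2D, and Igf1r of -3.26 and -1.37.

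Among 21 other secreted liver hormones and binding proteins tested, 9 were higher and 5 lower in 3D in both experiments, 4 and 3 of them at least 2-fold. Igfbp2, which binds insulin-like growth factors, had 3D minus 2D of -5.67 in iHep-2 and -2.55 in iHep-1, and Inhba, an activin subunit, 2.17 and 2.19. In iHep-2 against iHep-1, Igfbp2 differed by -6.79 in 3D and -3.66 in 2D. Igf1 was higher in iHep-2 by 3.05 in 2D and at least 3.16-fold in 3D (adjusted p = 0.372, and 0.044 with culture as a block, limma). The list's medians were 0.45 for the cultures and -0.27 for the experiments, and limma called 0 genes.

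Ahsg, which encodes fetuin-A, an abundant plasma inhibitor of mineral deposition and of the insulin receptor, was bright and nearly level. It stood at 9.02 (3D) and 8.38 (2D) in iHep-2, against 8.42 (3D) and 8.66 (2D) in iHep-1 (probe at mm9 chr16:22899415-22899474). The differences between cultures were 0.64 in iHep-2 and -0.24 in iHep-1, and the groups overlapped in both comparisons. The intensities before scaling were 207125 and 205909 in iHep-2, against 203835 and 211281 in iHep-1. In log2 units the 75th percentiles themselves differed by -0.63 (iHep-2) and 0.18 (iHep-1) (3D minus 2D), close to the Ahsg differences with the sign turned. Whether so bright a signal still follows the amount of RNA was not tested, so level intensities need not mean level RNA.

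Fetub, whose product fetuin-B is needed to keep mouse eggs open to fertilisation, differed more than its neighbour. It stood at 6.62 (3D) and 5.69 (2D) in iHep-2, against 5.67 (3D) and 4.32 (2D) in iHep-1 (probe at mm9 chr16:22939736-22939795). Each step was similar in size: 3D exceeded 2D by 0.93 (iHep-2) and 1.35 (iHep-1), and iHep-2 exceeded iHep-1 by 0.95 in 3D and 1.38 in 2D. The 2D array of iHep-2 and the 3D array of iHep-1 were thus level at 5.69 and 5.67. Without scaling the 3D excess was smaller in iHep-2, with intensities of 39322 in 3D and 31839 in 2D, than in iHep-1, with 30271 in 3D and 10420 in 2D.

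**Figure D2:**
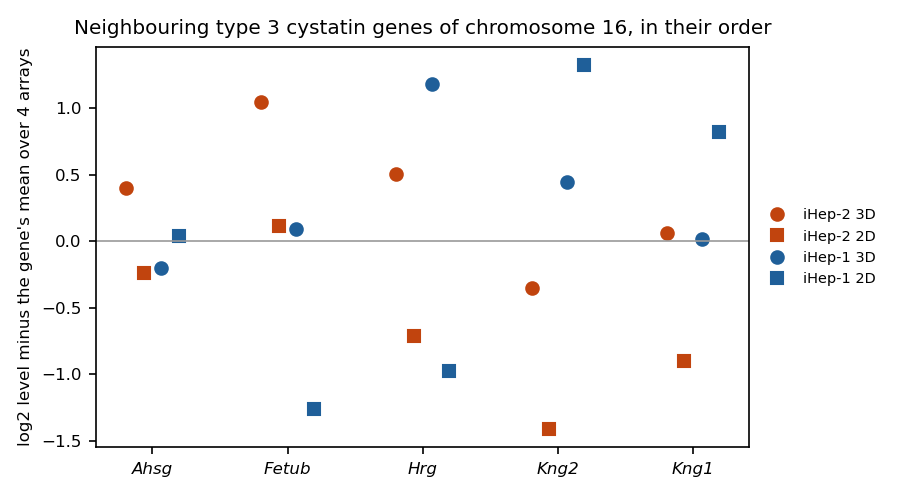
Levels of the type 3 cystatin genes Ahsg, Fetub, Hrg, Kng2 and Kng1, which follow each other on chromosome 16, as log2 level minus each gene's own mean over the 4 arrays (vertical axis); circles are 3D, squares 2D, orange iHep-2 and blue iHep-1. Hrg and Fetub have 3D above 2D in each experiment, while Kng2 and Kng1 have 3D above 2D in iHep-2 and below it in iHep-1.

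The fetuins belong to the type 3 cystatins, whose genes Ahsg, Fetub, Hrg, Kng2 and Kng1 follow each other on chromosome 16 in RefSeq. Hrg, the histidine-rich glycoprotein of plasma, had 3D minus 2D of 1.22 in iHep-2 and 2.16 in iHep-1, as Fetub did in sign. The kininogens, precursors of bradykinin, had opposite signs in the experiments: Kng1 differed by 0.96 (iHep-2) and -0.80 (iHep-1), and Kng2 by 1.06 and -0.88. In iHep-2 against iHep-1, Kng2 differed by -0.79 in 3D and -2.73 in 2D and Kng1 by 0.04 and -1.72, while Fetub was higher. The neighbours thus did not share 1 pattern over the 4 arrays. None of the 6 tested cystatins outside the members was called by limma in either comparison.

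**Figure D3:**
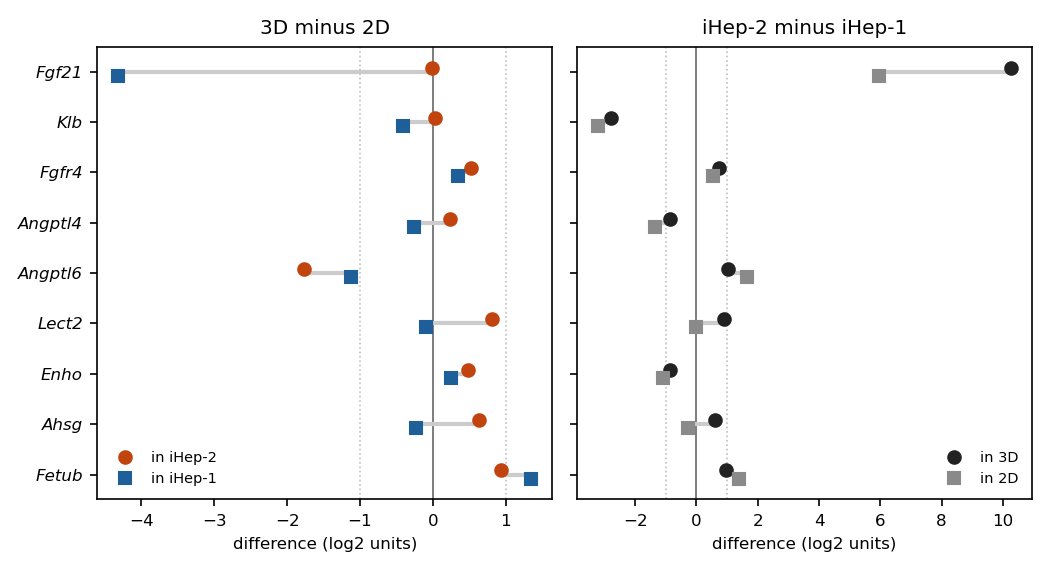
Differences of the 9 genes in log2 units (horizontal axes), left as 3D minus 2D in iHep-2 (circles) and iHep-1 (squares) and right as iHep-2 minus iHep-1 in 3D (circles) and in 2D (squares); dotted lines mark 2-fold. The Fgf21 points are measured differences that include a value not well above background in 3D of iHep-1; apart from Fgf21, the largest differences are those of Klb on the right, -2.78 and -3.21.

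The plot of differences shows that for Fgf21, Klb, Angptl4, Enho and the brightest Fgfr4 probe both differences between experiments were larger in size than both differences between cultures. For Angptl6, Fetub, Lect2 and Ahsg the contrasts were of similar size. Scaling matters for the direction of the small ones. With spike-in scaling, which moved the median of all genes to -1.08 for 3D minus 2D and 0.10 for iHep-2 minus iHep-1, the mean differences of Fgfr4, Lect2, Enho and Ahsg between cultures turned negative. Fetub then had a mean of 0.05 (0.40 in iHep-2 and -0.31 in iHep-1) and Angptl6 one of -2.54.

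Known regulators of these hormones had list medians away from that of all genes. PPAR-alpha is the fasting receptor that drives Fgf21 and Angptl4 in liver. Of 22 tested PPAR-alpha regulators and targets, 18 had higher levels in 3D in both experiments, 7 at least 2-fold, and 1 lower in both. Their median was 0.83 against 0.02 over all genes, or -0.26 against -1.08 with spike-in scaling. Cyp4a14 and Cyp4a10, fatty acid hydroxylases, had 3D minus 2D of 3.77 and 5.19 and of 3.31 and 2.37 (iHep-2 first). Creb3l3, a liver factor that acts with PPAR-alpha on Fgf21, had 5.13 and 2.66, and the peroxisomal enzyme Ehhadh 2.03 and 1.65. Beside these, Fgf21 stood at 1.89 in both cultures of iHep-2 and was dimmer in 3D of iHep-1, and Angptl4 differed by 0.23 and -0.26. No gene of the list was called by limma (smallest adjusted p = 0.683, or 0.206 with the replicate block).

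**Figure D4:**
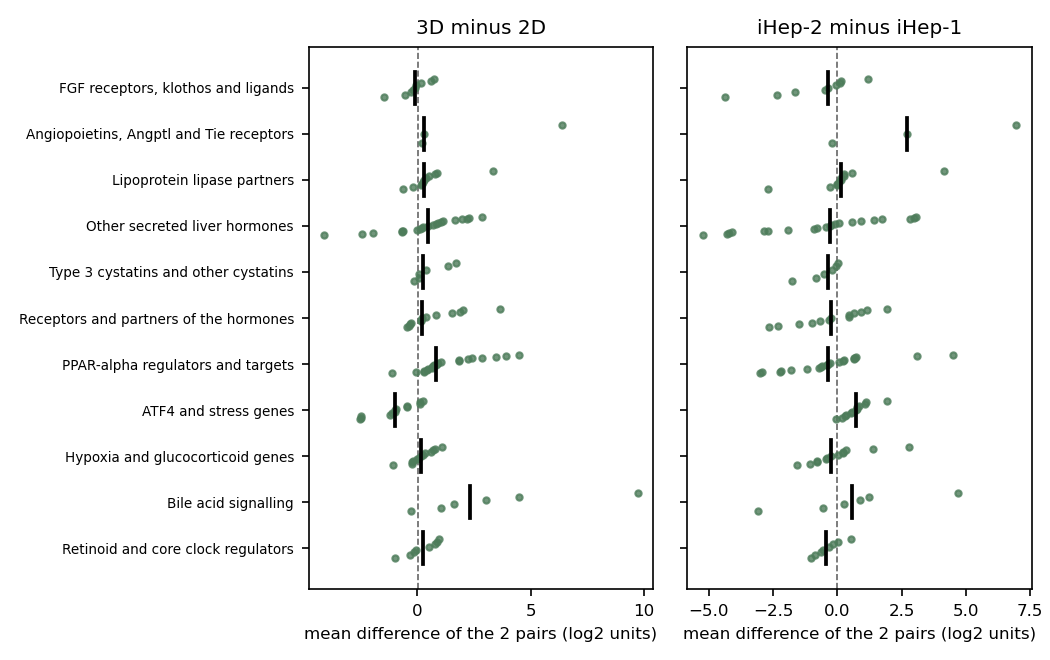
Mean difference of each tested list gene over the 2 pairs in log2 units (points; left 3D minus 2D, right iHep-2 minus iHep-1), the list median (black bar) and the median of all genes (dashed line). PPAR-alpha genes have a median of 0.83 and ATF4 genes -0.98 between cultures, and ATF4 genes 0.74 between experiments.

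ATF4, the stress factor with a motif match in the Fgf21 window, and its target genes had lower levels in 3D. Of 13 tested ATF4 and stress genes, 10 had lower levels in 3D in both experiments, 4 at least 2-fold, and 3 higher in both. Over all genes, 33.0% were lower in both and 2.13% at least 2-fold lower. The list median was -0.98 against 0.02 over all genes, or -2.08 against -1.08 with spike-in scaling. Trib3, an inhibitor of ATF4, had 3D minus 2D of -2.87 in iHep-2 and -2.13 in iHep-1, Ddit3, a factor of stress-induced death, -3.16 and -1.88, and the glutathione-degrading enzyme Chac1 -1.44 and -3.56. Sesn2, a stress sensor of amino acid supply, had -1.26 and -1.17.

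The same 13 genes were mostly higher in iHep-2, as Fgf21 was. In both cultures 11 were higher and 1 lower, with a median of 0.74 against -0.005 over all genes, but only Sesn2 was at least 2-fold higher in both (1.06 in 3D and 1.15 in 2D). Chac1 was higher in iHep-2 by 3.01 in 3D and 0.89 in 2D, Atf4 itself by 0.97 and 0.54, and Nupr1 by 0.92 and 0.56. Limma called 0 of them in either comparison, so these are sizes in 2 experiments. A link of these genes to the Fgf21 levels was not tested. In iHep-2 Fgf21 was level between the cultures, while 10 of the 13 genes were lower in 3D in both experiments. Of the PPAR-alpha genes, 5 were higher and 12 lower in iHep-2 in both cultures, with a median of -0.38. Cd36, a fatty acid transporter, was higher in iHep-2 by 2.37 and 6.64, and Pparg, the fat cell regulator, differed by -3.24 and -2.62. The adipocyte marker list, of which only Cidec and Fabp4 were well above background, had a summed log2 level of 0.96 (3D) and 0.76 (2D) in iHep-2, against 5.52 (3D) and 3.52 (2D) in iHep-1. Nearly all of the iHep-1 sum was Fabp4, at 5.49 (3D) and 3.51 (2D), while Cidec was higher in iHep-2 by 0.78 in 3D and 4.14 in 2D. Their part in these differences was not tested.

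The bile acid list holds enzymes, a transporter and regulators of bile acid synthesis, which FGFR4 with Klb helps to control. Of 6 genes tested, 5 had higher levels in 3D in both experiments, 4 at least 2-fold. The list median was 2.33 against 0.02 over all genes, or 1.23 against -1.08 with spike-in scaling. Hnf4a had opposite signs (0.23 in iHep-2 and -0.81 in iHep-1), and limma called 0 of the 6 (smallest adjusted p = 0.649, or 0.174 with the replicate block). Cyp7a1, the bile acid enzyme that FGF15 signalling represses, was at least 194-fold brighter in 3D, a bound because neither 2D array had it well above background. Nr1h4, the bile acid receptor FXR, was higher in iHep-2 by at least 27.1-fold in 3D and at least 7.88-fold in 2D (adjusted p = 0.142, and 0.040 with culture as a block, limma). Fgfr4 and Klb themselves differed between cultures by at most 0.53 in size by the probes shown in solid lines. By the Fgfr4 probe on the RefSeq transcript, 3D minus 2D was -1.53 in iHep-2 and -1.10 in iHep-1.

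The 13 tested hypoxia and glucocorticoid genes had a median of 0.17 between cultures and -0.23 between experiments, with Fkbp5, a glucocorticoid target, higher in 3D by 1.11 (iHep-2) and 1.09 (iHep-1). Vegfa, an angiogenic factor, had 3D minus 2D of -1.08 and -1.11. The 8 retinoid and clock regulators had medians of 0.24 and -0.46. Over all 125 of 151 list genes that were tested, limma called 0 in either comparison. With culture as a block it called 5 higher and 1 lower in iHep-2. Pcsk5, Igf1, Nr1h4 and the hepatocyte factor Fgl1 (2.99 in 3D and 2.69 in 2D) were among the higher, and Fgf7 was the lower.

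Likeness between genes was taken as the root mean square difference between profiles over the 4 arrays, each centred on its own mean, for members that spanned at least 2 log2 units. Bst1 and Moxd1 were nearest to Fgf21, at 1.22 and 1.24 log2 units, but all 3 were not well above background in 3D of iHep-1, so these distances rest partly on unmeasured levels. Klb had B3galnt1 (0.11) and Zic1 (0.11) nearest, Angptl6 had Arhgef39 (0.054) and Haspin (0.091), and Fetub had Micalcl (0.011) and 3100003M19Rik (0.070), both of which were well above background on 3 arrays. With 4 arrays such nearness describes these arrays only. Fgfr4, Angptl4, Lect2, Enho and Ahsg spanned too little for this.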

How the data were processed

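Spot intensity on a linear scale, as deposited, came from Agilent Feature Extraction. The file headers name version 10.7.1.1 and the submitters' processing notes version 9.5.1.1. Per the labels' protocols, total RNA was amplified and labelled with Cy3, and per the file headers the 4 arrays shared 1 slide and 1 scan and used probe positions of mm9. Intensity in the authors' series table is linear too. Its medians were equal within each experiment (22.6 for iHep-2 and 26.3 for iHep-1), it ranked probes as the processed signal does (Spearman at least 0.99998 across probes), and its normalization and centring are not given in the sources used here. The deposited columns with probe names, positions and flags were used as labels only.

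From the processed signal, log2 was taken in Python 3.11.15, each array's 75th percentile was subtracted and spots of a probe were averaged (72 to 85 outlier spots left out per array). Names came from accessions or symbols in a RefSeq gene table (8424 probes kept the name in the files). Probes were kept if at least 2 of 4 arrays had them well above background, and each gene took its probe with the highest mean. The fit over all genes used limma 3.58.1 under R 4.3.3 (two-sided lmFit and eBayes, Benjamini-Hochberg, threshold 0.05). The step was tested on simulated data. The experiment number pairs the arrays, per the design text; deviations of paired arrays correlated across genes (r = 0.66), and a fit blocked on experiment was an alternative. Where an array or group was not well above background, folds are bounds, taken against the lowest signal well above background or, if higher, the dim probe's value. The arrays' number limits the precision.

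The members and lists were chosen with earlier results of these data known. Named were all members, up to 4 genes per list and comparison with the largest smaller difference of the pairs, the nearest 2 profiles per member, and the neighbours Hrg, Kng1 and Kng2. List genes called with culture as a block, Afp, and dark list genes were named after their values were seen, and 1 list gene that these rules name is not reported here.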

Additional observations from a re-analysis of the deposited data

Results flagged for a closer look

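By brightest probes, the difference between cultures had opposite signs in the experiments in 4 of the 9 genes, where 33.8% of all genes tested did. Each experiment has 1 array per culture, so whether the effects differ was not tested. For Lect2, 3D minus 2D was 0.81 in iHep-2 and -0.09 in iHep-1, which are 0.907 log2 units apart. For Ahsg it was 0.64 and -0.24, or 0.871 apart, for Angptl4 0.23 and -0.26, or 0.490 apart, and for Klb 0.03 and -0.41, or 0.434 apart. The arrays' 75th percentiles differed by -0.63 (iHep-2) and 0.18 (iHep-1) (3D minus 2D, log2 units), and with spike-in scaling the differences were shifted by -0.53 (iHep-2) and -1.67 (iHep-1). With quantile normalization 3D minus 2D was negative in both experiments for Klb (-0.05 in iHep-2 and -0.42 in iHep-1). The same held for Angptl4 (-0.02 and -0.10) and Ahsg (-0.02 and -0.12), while Lect2 kept opposite signs (0.73 and -0.22). With spike-in scaling Klb and Angptl4 were negative in both experiments, and Ahsg and Lect2 had opposite signs. The signs of Klb, Angptl4 and Ahsg thus depended on the scaling, and other causes were not tested.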

How the results depend on the processing

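With 2 arrays per group and 1 slide, limma's counts move with the processing. In 3D against 2D, 0 genes were called under 11 alternatives, the replicate block and leaving out each array included. Spike-in scaling called 291 and the replicate block with an intensity trend and robust prior 13. With spike-in scaling limma gave all genes the same variance in both comparisons, so its counts are not like those of the other settings. In iHep-2 against iHep-1, the count of 54 became 100 with normexp, 126 with quantile normalization, 403 with spike-in scaling, 125 with the authors' series table and 3 when every array had to be well above background. It became 303 with culture as a block, 570 with that block, a trend and a robust prior, and 0 to 0 with 1 array left out. List genes called were 6 with culture as a block against 0. Members at least 2-fold higher in iHep-2 in both cultures were 2, and 1 with normexp, with that stricter filter and with the mean of kept probes. Those lower were 1, and 2 with quantile normalization and with the authors' table. Counts in both pairs could not be made with 1 array left out. For the cultures, 38 of 98 member differences moved by more than 1 SD, and 17 of 98 for the experiments. Signs between experiments were kept in all settings run, except for Ahsg (-0.15 without 3D replicate 2). Fgf21 between cultures ran from -7.30 to 2.98 with 1 array left out. The causes were not tested. Signal over background limits Fgf21 in iHep-1, Fgfr4 and Lect2. For the brightest members, Ahsg and Angptl4, a limit at high signal was not tested.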

Other observations

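Afp, the fetal plasma protein related to albumin, was singled out after its values were seen. Like Fgf21 it had its lowest level in 3D of iHep-1: it stood at 8.02 (3D) and 8.24 (2D) in iHep-2, against 0.91 (3D) and 7.20 (2D) in iHep-1. Unlike Fgf21, it was bright in 2D of iHep-1. Its 3D minus 2D was -0.22 in iHep-2 and -6.29 in iHep-1, and the difference between these was not tested.

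For Bst1 and Moxd1, the genes nearest to Fgf21, as for Fgf21, the level in 3D of iHep-1 was not well above background and is no measured level. Bst1 stood at -0.29 (3D) and 2.67 (2D) in iHep-2, against -8.12 (3D) and -5.57 (2D) in iHep-1. Moxd1 stood at 1.21 (3D) and 1.07 (2D) in iHep-2, against -6.12 (3D) and -4.04 (2D) in iHep-1. The retinol carrier Rbp4, another secreted liver protein, had steps of similar size in each pair: 3D minus 2D was 0.67 in iHep-2 and 0.72 in iHep-1, and iHep-2 minus iHep-1 was 0.89 in 3D and 0.95 in 2D.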
